A study of Mus musculus with 2 samples.

Results

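The genes described here are 8 members of the complement system in single-cell RNA-Seq of mouse pancreatic islets: C1qa, C1qb, C1qc, C3, C4b, C8b, Cfb and Serping1. They were chosen by symbol out of 27998 genes in the count matrices, and their unique molecular identifiers (UMIs, counts of distinct RNA molecules) were summed over classes of cell barcodes. Levels are given in CPM, the summed UMIs of a gene divided by all UMIs of the class and multiplied by 1000000. A barcode was placed by its leading hormone where insulin (Ins1 plus Ins2), glucagon (Gcg), somatostatin (Sst) or pancreatic polypeptide (PP, from Ppy) held at least 10% of its UMIs. Barcodes without such a hormone were placed as endothelial by Plvap, stromal by Dcn or macrophage by Pf4 when the highest of these markers had at least 3 UMIs, and the rest were kept as other nonendocrine. The insulin, glucagon, somatostatin and PP classes stand for β, α, δ and γ cells, respectively.

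The study compared islets of WT mice (labelled Wildtype) with those of Ghrelin knockout (GKO) littermates, which carry a germline deletion of the preproghrelin gene. All mice were C57BL/6N, 8 weeks old and fed standard chow, and viable dispersed islet cells were sorted before capture. Islets of 4 mice were pooled for each genotype and gave 1 library per genotype, so the spread between mice was not measured and no test was possible. All intervals below are exact 95% intervals of counting error only (Poisson for sums, Clopper-Pearson for shares), and GKO to WT ratios compare 2 libraries. Intervals of sums and ratios take each UMI as independent and leave out the spread between barcodes.

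The complement system is a cascade of plasma and cell surface proteins that tags microbes, dying cells and debris for removal. C1q, a hexamer of trimers built from the A, B and C chains (C1qa, C1qb, C1qc), starts the classical pathway by binding antibody or other targets. C4b (complement component 4) and C3 are cleaved to deposit fragments on surfaces, and factor B (Cfb) with C3 forms the convertase of the alternative pathway. C8b is the β chain of C8, part of the pore that ends the cascade, and Serping1 encodes the C1 inhibitor, which blocks C1r and C1s. Most circulating complement comes from the liver, while C1q is made largely by macrophages.

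The 3 C1q genes lie side by side on chromosome 4 of mm10, all on the minus strand, C1qb at chr4:136880129-136886187, C1qc at chr4:136889804-136893065 and C1qa at chr4:136895917-136898803, within 18.7 kb. C8b lies on the plus strand of the same chromosome at chr4:104766317-104804548. C4b (chr17:34728380-34743882) and Cfb (chr17:34856374-34862518) share a stretch of 134 kb on chromosome 17, C3 lies farther along it at chr17:57203970-57228136, and Serping1 is at chr2:84765387-84775444, these 4 on the minus strand.

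Promoter sequences in RefSeq (GRCm38.p6) were matched for 4 of the 8 genes, and the 200 bases before each start are shown because these genes were highest in different classes: C1qb and C1qc in macrophages, C3 in stromal barcodes and C8b in glucagon barcodes. Capitals mark 3 short motifs, chosen after the levels were seen and searched on both strands: GAGGAA, the core bound by PU.1 of myeloid cells, TTGCNNAA, a form of the C/EBP site, and TGCTGAC, a half-site of Maf factors. No motif overlapped another. Each sequence is given with its position in that build.
C1qb (chr4:136886201-136886400, minus strand): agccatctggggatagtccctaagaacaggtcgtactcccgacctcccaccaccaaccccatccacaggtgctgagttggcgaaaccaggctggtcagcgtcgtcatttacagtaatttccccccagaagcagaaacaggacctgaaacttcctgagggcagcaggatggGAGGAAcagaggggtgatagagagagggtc
C1qc (chr4:136892915-136893114, minus strand): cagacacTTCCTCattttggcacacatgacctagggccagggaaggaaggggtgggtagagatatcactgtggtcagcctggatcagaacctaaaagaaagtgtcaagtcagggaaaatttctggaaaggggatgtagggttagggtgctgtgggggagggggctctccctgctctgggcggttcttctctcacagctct
C3 (chr17:57228137-57228336, minus strand): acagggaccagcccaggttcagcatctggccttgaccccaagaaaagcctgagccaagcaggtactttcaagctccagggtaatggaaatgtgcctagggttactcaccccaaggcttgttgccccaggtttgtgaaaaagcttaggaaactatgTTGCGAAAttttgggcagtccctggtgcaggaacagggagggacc
C8b (chr4:104766117-104766316, plus strand): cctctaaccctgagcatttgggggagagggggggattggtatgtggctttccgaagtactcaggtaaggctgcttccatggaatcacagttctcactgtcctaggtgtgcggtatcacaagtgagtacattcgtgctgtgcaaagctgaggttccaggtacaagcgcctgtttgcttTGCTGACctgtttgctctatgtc

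The PU.1 core began 30 bases before the RefSeq start of C1qb and, on the opposite strand, 193 bases before that of C1qc. Of 32851 RefSeq promoters of this length, 19.0% held it. RefSeq places the start of C1qc inside the gene as given by GENCODE above. Most of the 200 bases shown for C1qc thus lie within that gene, and the match lies nearer to the GENCODE start. The C/EBP form began 45 bases before the start of C3 (7.47% of all promoters) and the Maf half-site 23 bases before that of C8b (3.21% of all). A match of this kind describes letters and not binding.

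With at least 500 genes and at most 10% of UMIs from mitochondrial genes required, 7100 of 7792 WT and 6346 of 7289 GKO barcodes were kept, with a median of 15412 and 11404 UMIs. Of the kept barcode sequences, 14 occurred in both libraries. Ghrelin itself (Ghrl) had 43634 UMIs in the WT and 280 in the GKO library. WT and GKO barcodes numbered 2265 and 872 for insulin, 1048 and 1397 for glucagon, 1414 and 1003 for somatostatin, 717 and 669 for PP, 588 and 444 endothelial, 293 and 716 stromal, and 60 and 201 macrophage. Among the endothelial, stromal and macrophage classes, each marker list was highest in the class of its name, with summed levels of 7414 and 7732 CPM for 6 endothelial genes in the endothelial class, 24915 and 23763 for 6 stromal genes in the stromal class, and 2276 and 3534 for 6 macrophage genes in the macrophage class. Genes of other lists were counted there too: the stromal genes were at 3647 and 3509 in endothelial barcodes, and the 3 ductal genes Krt19, Krt8 and Krt18 were at 2032 in WT and 217 in GKO macrophages. The 4 β cell genes summed to 40394 and 41388 in the insulin class but also to 27896 and 30843 in the somatostatin class, and the δ cell genes Hhex and Rbp4 summed to 5638 and 6500 in the somatostatin class. Ptger3 of the γ cell list had 0 UMIs in WT PP barcodes.

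Over the 7 classes named by hormone or marker, a gene was counted as led when 1 class was at least 4-fold above the others in both libraries. This held for 5 of the 8 genes (C1qa, C1qb, C1qc, C3 and Serping1), against 10.5% of the 12617 genes with enough UMIs. Other nonendocrine barcodes were left out of this count. They held C1qa at 1038 and 1519 CPM and C1qb at 1061 and 1671. Macrophages led for the 3 C1q genes and stromal barcodes for C3, C4b, Cfb and Serping1, whereas C8b was highest in glucagon barcodes. The first class of every gene was the same in both libraries.

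**Figure D1:**
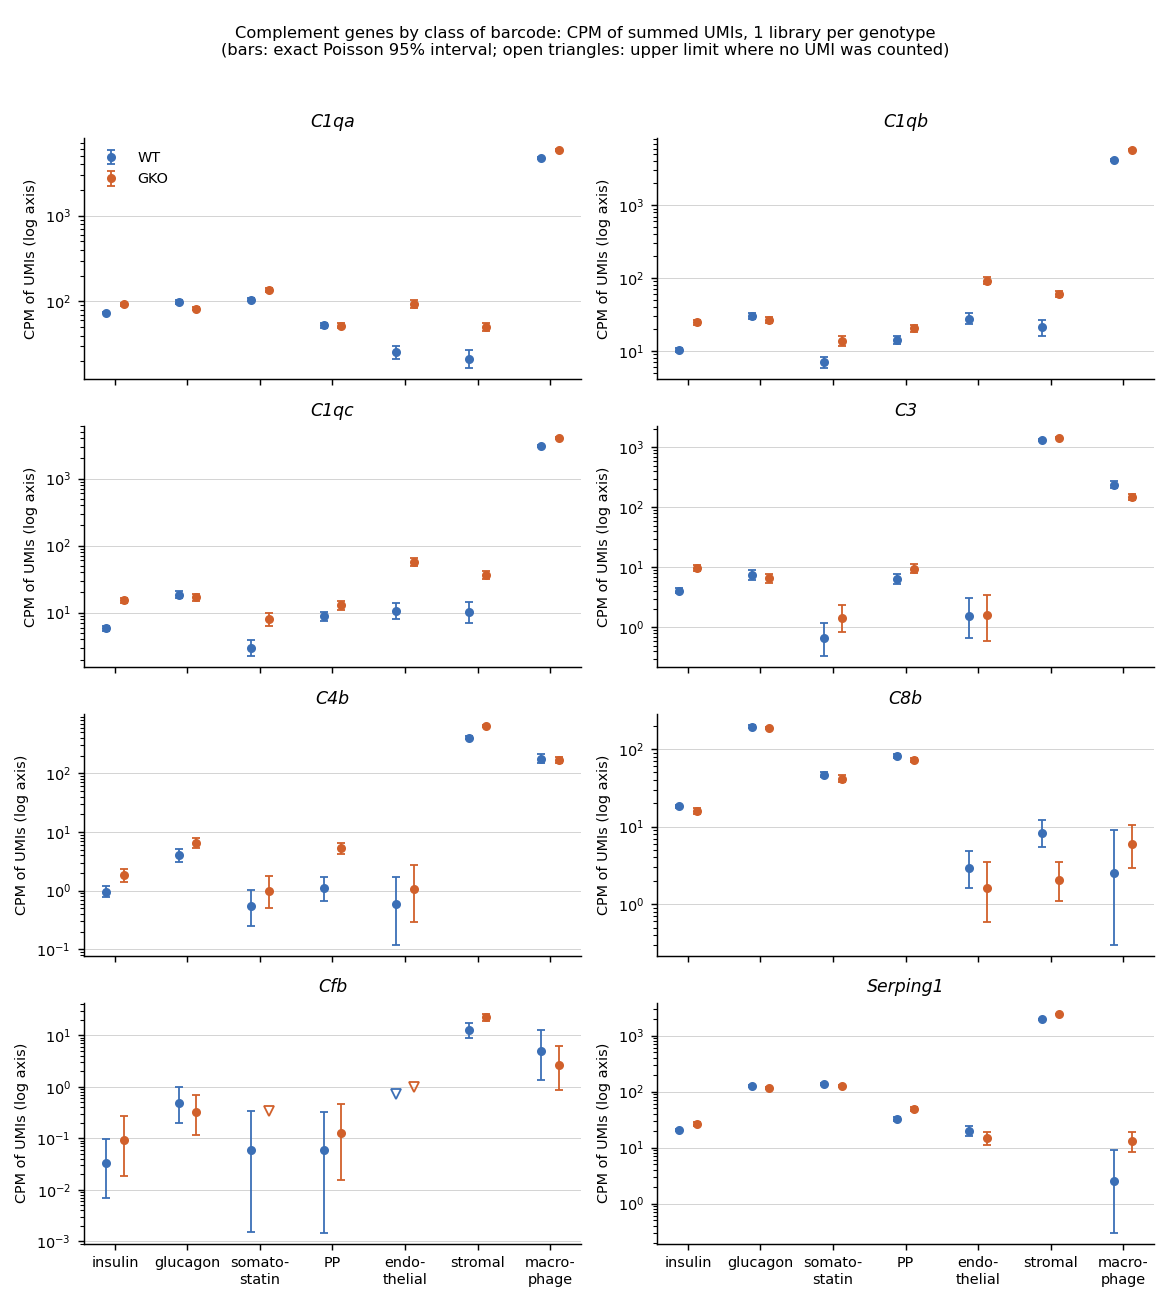
CPM (log axis) of each complement gene in 7 classes of barcodes, WT in blue and GKO in orange, 1 library each. Points are values of summed UMIs, bars are exact 95% Poisson intervals and open triangles are upper limits where no UMI was counted. C1q genes peak in macrophages (C1qa at 4677 and 5849), Serping1 in stromal barcodes (1943 and 2434) and C8b in glucagon barcodes (194 and 188).

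Among the initiators, C1qb reached 4167 CPM in WT macrophages (interval 4027 to 4310) and 5766 in GKO macrophages (5658 to 5877), and 91.7% and 98.5% of these barcodes held a C1qb UMI. C1qc stood at 3042 and 4035 in the same barcodes. C1qa was at 4677 and 5849, with a UMI in 93.3% and 99.0% of them. In macrophages the 3 chains came together: 55 of 60 WT and 198 of 201 GKO barcodes held all 3.

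The Pf4 class did not hold most of the C1q transcripts. It carried 23.4% of the WT and 36.0% of the GKO library's C1qb UMIs, and other nonendocrine barcodes carried 63.1% and 55.6%. Within the latter, 150 WT and 258 GKO barcodes had at least 3 C1qb UMIs, a set formed after the values were seen. Csf1r, the receptor for the macrophage growth factor CSF1, was detected in 97.3% and 95.3% of that set and Cd68, a lysosomal protein of macrophages, in 97.3% and 94.6%.

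The C1q levels of that set follow from its choice by C1qb. In the 180 WT and 326 GKO other nonendocrine barcodes with at least 3 UMIs of the 6 macrophage genes, C1qa was at 3374 and 3865 CPM and present in 83.3% and 79.1%, below the levels of the Pf4 class. Itgax, a complement receptor subunit also called CD11c, was detected in 66.0% and 67.1% of the C1qb set against 11.7% and 11.9% of the Pf4 class, while Mrc1, a mannose receptor, was detected in 20.0% and 29.8% against 75.0% and 92.0%. Cx3cr1, a chemokine receptor, was detected in 70.0% and 81.8% of the set and in 38.3% and 48.8% of the Pf4 class. Thus C1q transcripts came from barcodes on both sides of the Pf4 rule, which differed in these receptor genes.

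C1qa was also counted in most β and δ cell barcodes, and there it was not accompanied by its partner chains. A C1qa UMI was present in 72.9% of WT (71.1 to 74.8) and 76.6% of GKO (73.7 to 79.4) insulin barcodes. C1qb was present in 6.84% and 11.4% of the same barcodes and C1qc in 3.18% and 6.31%. All 3 chains were found together in 15 of 2265 and 17 of 872.

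The share of barcodes with C1qa was 60.0% and 67.5% in the somatostatin class, 52.1% and 47.3% in the glucagon class, and 52.6% and 46.0% in the PP class. It was 4.08% and 4.28% in endothelial barcodes. As summed levels, C1qa was at 74.2 and 92.6 CPM in insulin, 97.8 and 82.6 in glucagon, 105 and 136 in somatostatin and 52.7 and 52.0 in PP barcodes. Among the hormone classes, somatostatin was highest and PP lowest in both libraries. Endothelial barcodes were at 25.4 and 93.0 and stromal barcodes at 21.4 and 50.4, with a single barcode holding 54 of 131 and 78 of 350 endothelial UMIs and 32 of 67 and 85 of 319 stromal UMIs.

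To set aside barcodes with transcripts of the partner chains, C1qa was counted again in barcodes with no UMI of C1qb or C1qc, a set formed after the values were seen. These made up 84.3% to 96.2% of each hormone class. Among them, C1qa was detected in 1483 of 2055 WT insulin barcodes (72.2%, 70.2 to 74.1) and in 551 of 735 GKO insulin barcodes (75.0%, 71.7 to 78.1). At least 3 C1qa UMIs were found in 760 and 293 of these barcodes.

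The corresponding shares were 59.7% and 67.2% for somatostatin, 51.0% and 46.3% for glucagon and 51.2% and 43.8% for PP barcodes. In endothelial barcodes, a class that should lack C1qa, 3.87% and 2.42% of barcodes without partner chains had a C1qa UMI, and in stromal barcodes 5.04% and 4.49%. Endothelial barcodes were shallower, with a median of 7034 and 7370 UMIs against 36497 and 35250 for insulin and 11025 and 10116 for somatostatin. With each barcode thinned to 3000 UMIs, the shares were 14.7% and 16.9% for insulin, 24.8% and 32.4% for somatostatin, 18.1% and 16.1% for glucagon and 12.2% and 8.83% for PP, against 0.362% and 1.00% for endothelial and 0.778% and 1.90% for stromal barcodes.

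As a level, C1qa without its partners was at 65.3 (63.5 to 67.1) and 71.2 CPM in insulin barcodes, and at 100.2 and 128 in somatostatin barcodes. It was at 6.10 (4.12 to 8.71) and 3.23 in endothelial and 7.32 and 6.18 in stromal barcodes. The hormone classes therefore lay above the endothelial and stromal classes at matched depth as well as at full depth. Among other nonendocrine barcodes without partner chains, 20.7% and 16.1% held C1qa, at 35.3 and 37.6 CPM. Those led by Krt19, a ductal keratin, held it in 6.90% and 5.19%. Those led by none of Rgs5, Krt19, Cd79a, S100a9 or Cpb1 held it in 39.7% and 38.1%, at 73.9 and 74.2 CPM. After thinning, the latter shares were 20.4% and 16.4%. C1qa without its partners was therefore also counted outside the hormone-led barcodes, as the 10% limit sets them. The part led by none of Rgs5, Krt19, Cd79a, S100a9 or Cpb1 held C8b at 69.5 and 51.6 CPM, above the somatostatin class. The 4 β cell genes were not summed for this part alone. Over all other nonendocrine barcodes they were at 5576 and 4718 CPM, against 794 and 394 in endothelial barcodes. Whether barcodes of this part are endocrine cells below the hormone limit was not tested.

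**Figure D2:**
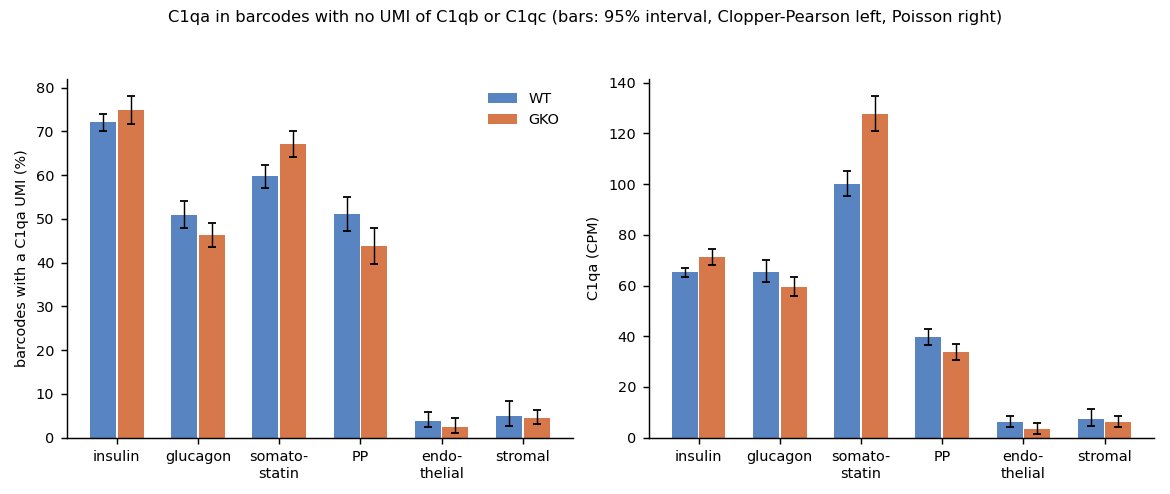
C1qa in barcodes with no UMI of C1qb or C1qc, by class (x axis), as the share of barcodes with a C1qa UMI in percent (left) and as CPM (right), WT in blue and GKO in orange. Bars show 1 library each with exact 95% intervals. The 4 hormone classes lie at 43.8% to 75.0% and the endothelial and stromal classes at 2.42% to 5.04%.

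The proportion of the chains shows the same from all barcodes of a class. In macrophages there were 1.12 (1.07 to 1.18) C1qa UMIs per C1qb UMI in WT and 1.01 (0.99 to 1.04) in GKO. The endothelial class had 0.91 and 1.01 and the stromal class 1.02 and 0.83. The hormone classes had 7.15 and 3.74 (insulin), 3.25 and 3.11 (glucagon), 15.0 and 9.98 (somatostatin) and 3.67 and 2.54 (PP). C1qc per C1qb, in contrast, ran from 0.38 to 0.73 over all 7 classes and both libraries, so the excess concerned C1qa and not C1qc.

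None of the genes placed here (GENCODE for mm10) overlaps C1qa, and Epha8, an ephrin receptor, lies 30.6 kb upstream of it. The rest of the annotation was not searched for genes that overlap C1qa. The last 500 bases of the C1qa transcript share no identical 90-base window with those of C1qb or C1qc. Only these chains were compared, so whether reads of other genes were counted as C1qa was not tested. Whether the UMIs stand for a full C1qa transcript cannot be told from 3′ counts.

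**Figure D3:**
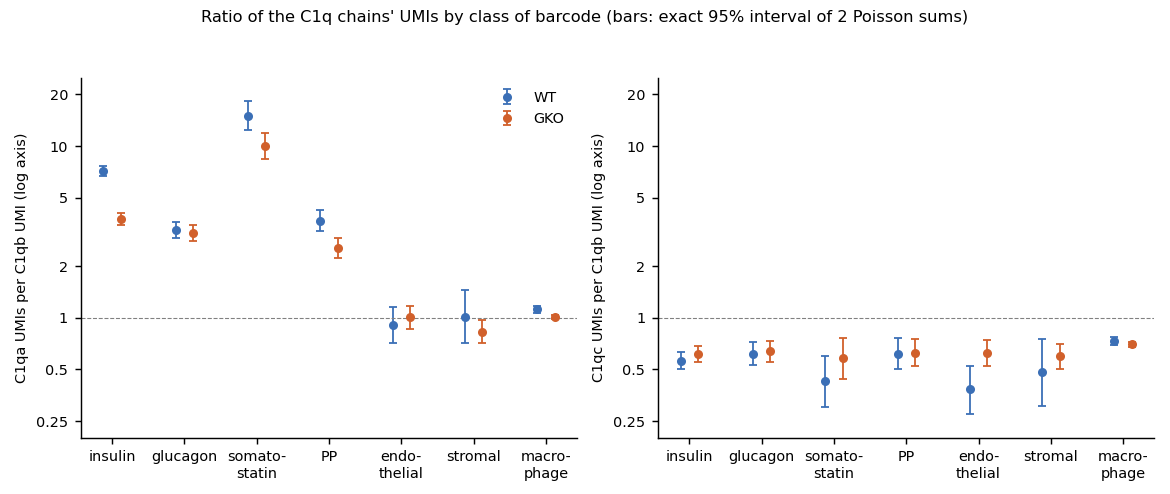
C1qa UMIs per C1qb UMI (left) and C1qc UMIs per C1qb UMI (right), both on log axes, by class, with exact 95% intervals; WT in blue, GKO in orange, 1 library each. C1qa per C1qb is 0.83 to 1.12 in endothelial, stromal and macrophage barcodes and 2.54 to 15.0 in the 4 hormone classes, while C1qc per C1qb stays between 0.38 and 0.73.

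C3, on which all pathways converge, was highest in stromal barcodes at 1331 (1290 to 1372) and 1447 (1417 to 1477) CPM, and these held 79.0% and 86.6% of each library's C3 UMIs. It was uneven among them: 43.3% and 57.5% of stromal barcodes held a C3 UMI, and the top 10% of stromal barcodes by C3 held 75.8% and 54.2% of the C3 UMIs. Stromal barcodes with Pdgfra, a fibroblast receptor, and no UMI of Rgs5, a pericyte gene, had C3 in 46.0% and 73.4%. Those with Rgs5 and no Pdgfra had it in 15.2% and 7.14% (n = 33 and 140). Stromal barcodes with both genes had it in 45.8% and 37.0%, and those with neither in 52.6% and 64.8%.

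Macrophages held C3 at 241 and 150 CPM, in 28.3% and 17.4% of barcodes, and Krt19 barcodes at 150.2 and 88.6. Among the hormone classes, insulin barcodes held C3 most often, in 10.3% (9.07 to 11.6) and 14.4% (12.2 to 17.0), against 1.15% and 2.15% of glucagon and 0.778% and 1.40% of somatostatin barcodes. Insulin barcodes were deeper, and after thinning the shares were 1.28% and 2.06% against 0.478% and 1.00% in glucagon barcodes. Their intervals overlapped in WT (0.86 to 1.84 and 0.16 to 1.11) and in GKO (1.23 to 3.24 and 0.55 to 1.68). As levels over all barcodes, C3 was at 4.11 and 9.81 CPM in insulin, 7.52 and 6.62 in glucagon and 6.49 and 9.58 in PP barcodes. Insulin was thus not the highest hormone class in WT. In hormone barcodes with no UMI of Plvap, Dcn, Pf4 or Lyz2, a myeloid lysozyme, C3 was at 3.30 (2.88 to 3.76) and 5.03 (4.10 to 6.10) CPM for insulin. It was at 0.49 and 1.21 for glucagon, 0.72 and 1.19 for somatostatin and 0.84 and 1.74 for PP. In this subset the insulin class lay above the other 3 in both libraries.

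C4b was at 402 (380 to 424) and 631 (611 to 650.5) CPM in stromal and at 177 and 169 in macrophage barcodes, and its share of barcodes was 57.7% and 62.4% in the former and 50.0% and 44.8% in the latter. In the other nonendocrine barcodes with at least 3 UMIs of the macrophage genes, C4b was present in 2.22% and 3.37%. Within the stromal class, C4b was found in 54.5% and 52.9% of barcodes with Rgs5 and no Pdgfra and in 53.5% and 67.5% of those with Pdgfra and no Rgs5. The count of C4b is uncertain, because its paralog C4a, annotated at chr17:34809092-34823464, is no row of the matrices. The last 500 bases of the 2 transcripts were 98.0% identical, and 83 of 411 windows of 90 bases were shared.

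Cfb was scarce, with 39 and 141 UMIs in stromal barcodes (12.4 and 22.3 CPM) and at most 7 UMIs in any hormone class. The endothelial class held 0 Cfb UMIs in both libraries, where the limit of 3 counts corresponds to 0.582 and 0.797 CPM. C3 was found in 76.7% and 83.2% of stromal barcodes with a Cfb UMI and in 39.5% and 53.0% of those without. Barcodes with Cfb were deeper, at a median of 12294 and 10122 UMIs against 9212 and 8089. C3 and C4b had a Pearson r of 0.98 over the 14 values (7 classes in 2 libraries, log2 of CPM plus 1), and Col14a1, a fibril-associated collagen, followed C3 at 0.97. This likeness is a description over classes that share libraries.

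C8b followed the hormone classes instead. It was detected in 86.3% (84.0 to 88.3) and 85.2% (83.2 to 87.0) of glucagon barcodes, at 194 (187 to 201) and 188 (182 to 194) CPM. PP barcodes came next, at 81.1 and 72.1 with shares of 73.9% and 69.5%. Somatostatin barcodes were at 46.5 and 41.6, and insulin barcodes at 18.3 and 16.03 despite a share of 40.4% and 35.1% at their greater depth.

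After thinning to 3000 UMIs the order was glucagon (44.1% and 44.4%), PP (20.9% and 17.5%), somatostatin (11.8% and 11.8%) and insulin (4.73% and 4.13%). Endothelial barcodes, which should lack C8b, held it in 0.524% and 0.467% after thinning. At full depth they held it in 1.70% and 1.35%, at a median of 7096 and 7410 UMIs against 12502.5 and 12174 for glucagon barcodes. The intervals of the 4 hormone classes did not overlap in either library for CPM or for the thinned shares. For the shares at full depth, those of insulin and somatostatin barcodes overlapped in both libraries. C8b was spread thinly over many barcodes, with at most 11 and 17 UMIs in one glucagon barcode.

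Of the other genes of the pore, C7 was highest in stromal barcodes at 107 and 174 CPM. C8a, the chain that pairs with C8b, and C9, which polymerizes to form the pore, had 0 UMIs in the 7 classes. Hc, which encodes C5, had 5 UMIs in all. C8g, the γ chain of C8, was at 3.13 and 3.47 CPM in insulin barcodes, its highest class, and nearly as high in somatostatin barcodes (2.93 and 3.28). C6 was at 16.2 and 18.3 in macrophages, its highest class, and at 4.17 and 3.15 in PP barcodes. The genes most like C8b across the 14 values were Sfrp5, a secreted Wnt inhibitor (r = 0.97), and Pcsk1n, an inhibitor of a prohormone convertase (r = 0.97).

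Serping1 was the most widely shared of the 8 genes among stromal barcodes, in 99.3% (97.6 to 99.9) and 99.4% (98.6 to 99.8), at 1943 and 2434 CPM. It was as frequent in Pdgfra barcodes (99.5% and 99.8%) as in Rgs5 barcodes (100% and 98.6%), with 2024 and 2726 CPM in the former and 1062 and 1193 in the latter. Outside the stromal class, other nonendocrine barcodes led by Rgs5 held it at 545 and 588. Macrophages had 2 and 24 UMIs, or 2.49 and 12.9 CPM.

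Somatostatin and glucagon barcodes also held Serping1, at 134 and 126 and at 127 and 114 CPM, with shares of 72.3% and 66.9% and of 74.4% and 69.6%. PP barcodes were at 32.7 and 48.8 and insulin barcodes at 20.5 and 26.2. Endothelial barcodes held it in 6.97% and 6.31%. Without barcodes carrying Plvap, Dcn, Pf4 or Lyz2, glucagon barcodes kept 122 and 106 and somatostatin barcodes 135 and 125 CPM. The α and δ cell classes thus had like levels of the C1 inhibitor gene, above β and γ cell classes.

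GKO and WT libraries were then compared class by class. Of 56 pairs of gene and class, 47 had at least 20 UMIs over both libraries, and 19 of these were at least 1.5-fold higher in GKO (background over all genes in the 7 classes, 6.93%) and 3 at least 1.5-fold lower (background 6.71%). The remaining 25 lay within 1.5-fold. The pairs are not independent, because the C1q genes moved together in classes where few UMIs were counted, and the median log2 ratio of all genes was between -0.01 and 0.09 by class.

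**Figure D4:**
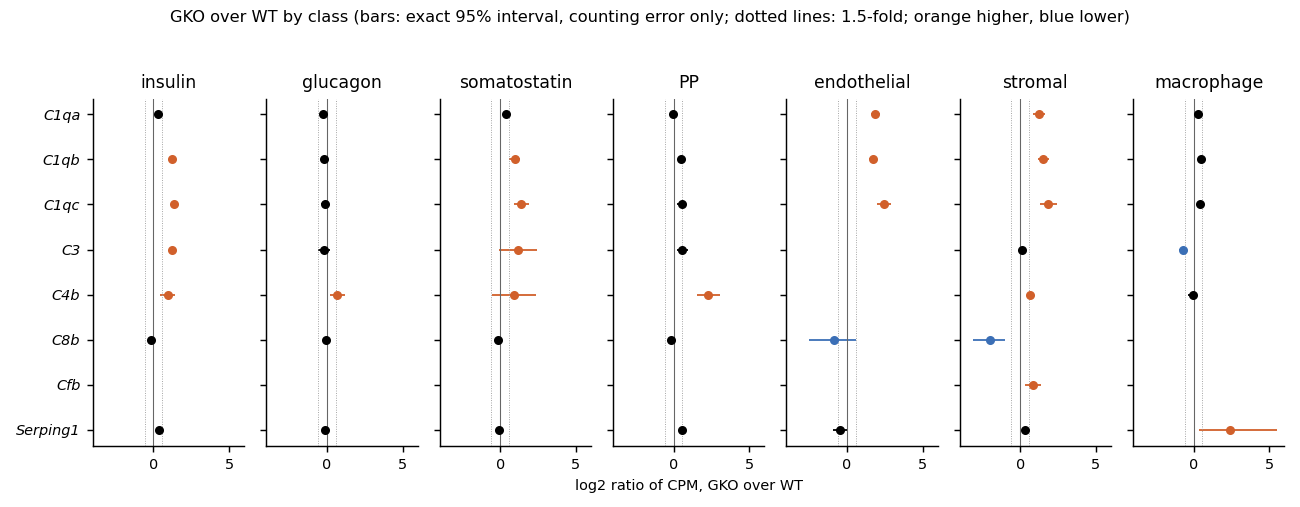
Log2 ratio of CPM, GKO over WT, for each complement gene (rows) in 7 classes (panels), with exact 95% intervals of counting error and dotted lines at 1.5-fold. Orange points are at least 1.5-fold higher and blue points at least 1.5-fold lower in GKO, and pairs with fewer than 20 UMIs are not drawn. C1q genes lie at 1.24 to 2.43 in endothelial and stromal barcodes, and C8b lies near 0 in the hormone classes.

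Taking for each gene its highest of the 7 classes, C4b and Cfb were past 1.5-fold between libraries and the other genes lay within it. In other nonendocrine barcodes, outside these classes, C1qb (log2 ratio 0.66) and C1qc (0.68) were past 1.5-fold upward. C4b (-0.74) was past it downward there, and the other genes lay within it. In macrophages, C1qa, C1qb and C1qc were higher in GKO by a log2 ratio of 0.32 (0.27 to 0.38), 0.47 (0.41 to 0.53) and 0.41 (0.34 to 0.47), each within 1.5-fold. These ratios depended on the Pf4 limit. With a marker limit of 10 UMIs they were -0.12, 0.015 and -0.035. With a limit of 1 UMI they were 0.62, 0.70 and 0.73, each past 1.5-fold. Of 6 genes with enough UMIs in macrophages, 1 was past 1.5-fold upward and 1 downward, against 11.9% and 20.0% of all 8702 genes counted there. C8b in glucagon barcodes had a ratio of -0.05 (-0.12 to 0.03). Serping1 in stromal barcodes stood at 0.33 (0.28 to 0.37) and C3 at 0.12 (0.07 to 0.17).

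In stromal barcodes 5 of 8 genes were at least 1.5-fold higher and 1 was at least 1.5-fold lower, against 10.6% and 8.27% of 11943 genes. C4b and Cfb were among the former. C4b was at 402 in WT and 631 CPM in GKO (log2 ratio 0.65, 0.56 to 0.74) and Cfb at 12.4 and 22.3 (0.84, 0.32 to 1.39). Centred on the median gene, C4b was at 0.56, within 1.5-fold. Stromal barcodes with Rgs5 and no Pdgfra were 33 of 293 in WT and 140 of 716 in GKO. In barcodes with Pdgfra and no Rgs5, C4b was at 360 and 710, Cfb at 8.36 and 26.1, C3 at 1114 and 1715 and Serping1 at 2024 and 2726, all higher in GKO. Not all parts went this way. In barcodes with Rgs5 and no Pdgfra, C3 was at 698 in WT and 141 in GKO, and C4b at 256 and 333. In the 24 and 27 barcodes with both genes, C3 was at 2901 and 938, Cfb at 36.7 and 8.30 (10 and 2 UMIs) and C4b at 833 and 855. In the 38 and 128 barcodes with neither, C3 was at 2037 and 1957 and C4b at 463 and 548.

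Other values past the fold lay outside the class where each gene was highest. C1qb was higher in GKO by a log2 ratio of 1.25 (1.12 to 1.39) in insulin, 0.96 in somatostatin, 1.73 in endothelial and 1.53 in stromal barcodes, and C1qc by 1.38, 1.40, 2.43 and 1.83. A single barcode held 82 of 117 WT and 46 of 150 GKO C1qb UMIs in the somatostatin class. This was 79 of 144 and 75 of 348 in endothelial, 42 of 66 and 117 of 385 in stromal and 110 of 924 and 106 of 812 in insulin barcodes. Under the alternative settings, the somatostatin ratios ran from 0.72 to 2.77 (C1qb) and from 0.49 to 2.78 (C1qc). C1qa was higher by 1.87 in endothelial and 1.24 in stromal barcodes but by 0.32 in insulin and 0.37 in somatostatin barcodes. The 6 macrophage genes were also higher, at 3.86 and 11.2 CPM in insulin, 1.79 and 5.28 in somatostatin, 14.2 and 43.6 in endothelial and 15.3 and 29.6 in stromal barcodes. All 6 were detected in these classes except 1 at 0 in WT somatostatin and 2 at 0 in WT stromal barcodes. The GKO library also held more macrophage barcodes, and the part of these values in the C1q ratios was not tested.

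In hormone barcodes without UMIs of Plvap, Dcn, Pf4 or Lyz2, C1qb was at 1.60 and 2.46 CPM for insulin and 2.24 and 4.22 for somatostatin, far below the 10.4 and 24.8 and the 7.0 and 13.7 of all barcodes of these classes. C1qa was also lower, but by less in proportion. It was at 64.1 and 70.9 for insulin and 100.4 and 126 for somatostatin, against 74.2 and 92.6 and 105 and 136 in all such barcodes. For glucagon it was at 67.4 and 60.2 against 97.8 and 82.6, and for PP at 41.0 and 35.8 against 52.7 and 52.0. The barcodes left in this comparison numbered 1749 and 575 for insulin, 1296 and 859 for somatostatin, 909 and 1144 for glucagon and 611 and 517 for PP.

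C3 was higher in GKO in insulin barcodes by 1.26 (1.04 to 1.48) and C4b was higher in insulin (0.94), glucagon (0.69) and PP (2.26) barcodes. These calls depended on which barcodes were used. C3 in insulin barcodes lay within 1.5-fold with the hormone limit at 25% (0.42) and with mixed barcodes left out (0.56). C4b was within 1.5-fold with mixed barcodes left out in insulin (0.45) and glucagon (0.18) barcodes, in insulin barcodes without UMIs of Plvap, Dcn, Pf4 or Lyz2 (0.55), and after thinning in glucagon (0.032) and PP (0.52) barcodes. The 6 stromal marker genes were also higher there, at 63.9 and 86.3 CPM in insulin, 116 and 147 in glucagon and 59.5 and 143 in PP barcodes, with all 6 detected, and their part was not tested. A single barcode held 107 of the 322 C3 UMIs of the GKO insulin class. In the barcodes without the 4 markers, C3 for insulin was at 3.30 and 5.03 CPM and C4b at 0.44 and 0.64. C4b in such barcodes was at 0.41 and 1.48 for glucagon (5 and 22 UMIs) and at 0.49 and 1.13 for PP (7 and 13 UMIs).

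In macrophages C3 was lower in GKO, at -0.69 (-0.96 to -0.42), with 194 UMIs in 60 and 278 in 201 barcodes. One WT barcode held 136 of the 194, and the 3 ductal genes summed to 2032 CPM in WT and 217 in GKO macrophages, whose part was not tested. C8b was lower in stromal (-2.01, 26 and 13 UMIs) and endothelial barcodes (-0.87, 15 and 6 UMIs), where it was near its background, and the α cell genes Gcg and Irx2 summed to 2983 and 772 CPM in the former and to 2336 and 841 in the latter. The part of these values was not tested. In the hormone classes, C8b stayed between -0.19 and -0.05. Serping1 in macrophages rested on 2 and 24 UMIs (2.38, 0.37 to 5.50).

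Of the other complement genes examined, 39 were in the matrices and 24 had at least 100 UMIs in a class. Stromal barcodes were first in both libraries for several of these genes. C1ra and C1s1, the proteases that C1q activates, were at 279 and 335 and at 444 and 603 CPM there. C2, the partner of C4b, was at 131 and 187, and Vtn, which blocks pore assembly, at 422 and 498.

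Macrophages were first for others, among them Cfp, the stabilizer of the alternative convertase (271 and 411), and the receptors C3ar1 (146 and 201) and C5ar1 (157 and 202). Cd93, once described as a C1q receptor, was highest in endothelial barcodes (673 and 594). In the hormone classes, Cpn1, a protease that inactivates anaphylatoxins, was highest in glucagon barcodes (98.6 and 112), and Cd59a, which blocks the pore, was at 24.8 and 30.4 in insulin and 69.3 and 75.0 in PP barcodes. Cfd, which encodes factor D, had 0 UMIs in these classes.

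**Figure D5:**
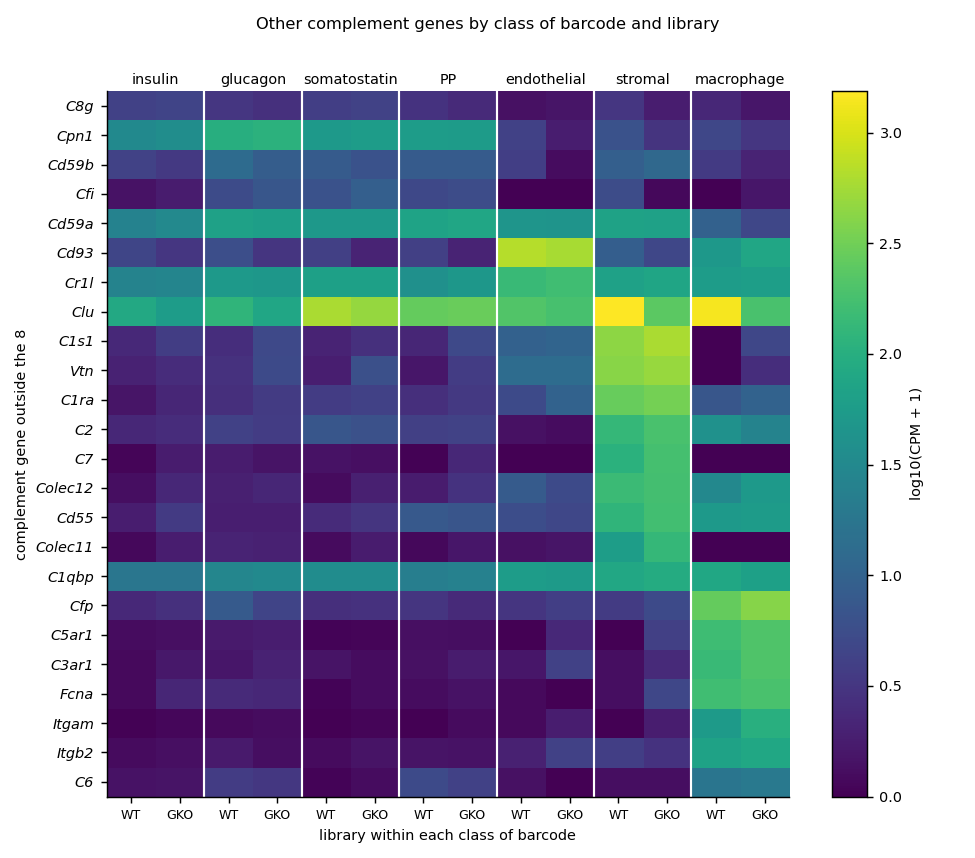
Levels of 24 complement genes outside the 8 as log10 of CPM plus 1 (color), by class and library (columns). Genes (rows) are grouped by the class with their highest value. Stromal barcodes hold C1s1, Vtn and C1ra, macrophages hold Cfp, C5ar1 and C3ar1, and Cd93 is endothelial.

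Between libraries, 132 pairs of the 39 genes and 7 classes had at least 20 UMIs, 33 were at least 1.5-fold higher and 17 at least 1.5-fold lower in GKO, against the backgrounds of 6.93% and 6.71% given above. Clu, which encodes clusterin, an inhibitor of the pore and a chaperone, had the most negative ratios of these genes. It was at 1540 in WT and 243 CPM in GKO stromal barcodes (log2 ratio -2.66, -2.75 to -2.58) and at 1384 and 188 in macrophages (-2.88, -3.06 to -2.71). The 3 ductal genes moved the same way in macrophages (2032 and 217 CPM) but the other way in stromal barcodes (41.8 and 110 CPM). Their part was not tested. The ratio of Clu was -0.66 in glucagon, -0.55 in insulin, -0.33 in somatostatin and 0.09 in PP barcodes.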

How the data were processed

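Dispersed islet cells were captured with 10x Genomics 3′ chemistry (v3.1), 1 library per genotype. Per the labels and the study's methods, the authors used Cell Ranger 5.0.1 with STAR on mm10, down-sampled reads across samples as required and deposited counts of UMIs for barcodes called as cells. For their own analysis the authors then removed ambient RNA with CellBender. The matrices used here carry the header of Cell Ranger and hold 7792 WT and 7289 GKO barcodes. These are the numbers of cells that the study gives for the Cell Ranger output, ahead of that step. The counts are therefore taken as those from before the removal of ambient RNA. From these deposited counts, UMIs were summed by class in Python 3.11.15 with numpy 2.4.6, pandas 2.3.3 and scipy 1.17.1 and divided by the class total (803474 UMIs for WT macrophages to 89046751 for WT insulin barcodes). The whole matrices held 158067110 UMIs in WT and 103511757 in GKO. Each barcode stayed in 1 class, including 62 WT and 22 GKO insulin barcodes with a second hormone at 10% or more. No doublet caller was run. The leading hormone held less than 25% of UMIs in 53 WT and 37 GKO insulin, 525 and 611 glucagon, 1308 and 913 somatostatin and 165 and 134 PP barcodes.

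With 1 sample per genotype no model was fitted. A pair of gene and class counted as higher or lower at 1.5-fold with at least 20 UMIs over both libraries, and a gene as led by a class at 4-fold over the next. Intervals cover counting error only and say nothing of the spread between mice, and those of sums and ratios say nothing of the spread between barcodes. The intervals and calls were tested on simulated Poisson sums, which hold no spread between barcodes. All 8 genes were named, with those of 40 other complement genes that had at least 100 UMIs in a class, and the 3 genes most like each by Pearson r. Some genes of the lists are not reported here. The genes, lists and rules were chosen with earlier results of these data known. Gene positions are from GENCODE for mm10. Alternatives changed the barcode filter, hormone and marker limits, mixed barcodes, totals, scaling, weights, depth and fold. 2 were chosen after seeing the data: macrophages by 6 genes, and hormone barcodes without Plvap, Dcn, Pf4 or Lyz2.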

Additional observations from a re-analysis of the deposited data

Results flagged for a closer look

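C3 was at least 1.5-fold higher in GKO in some classes and at least 1.5-fold lower in another, and the difference between classes was not tested because each genotype had 1 library. The log2 ratio of GKO over WT was 1.26 in insulin barcodes, 1.15 in somatostatin barcodes (11 and 16 UMIs, interval -0.05 to 2.40) and -0.69 in macrophages. In macrophages it was 0.062 with a limit of 10 UMIs of the class marker and 0.36 with macrophages set by 6 genes.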

How the results depend on the processing

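No paired analysis was possible because the labels give 1 library per genotype with no shared replicate number. Of 601 recomputed GKO to WT ratios under 13 alternatives, 475 stayed within the interval of counting error, 122 moved outside it and 4 changed sign after having been past 1.5-fold: C3 in macrophages (0.062 with a marker limit of 10 UMIs and 0.36 with macrophages by 6 genes), Serping1 in macrophages (-0.033 with the hormone limit at 25%) and C8b in endothelial barcodes (0.23 with barcodes weighted alike). The number of pairs higher in GKO ran from 13 to 22, the latter of 47 with barcodes weighted alike (7.36% of all genes). The number lower was 1 of 48 with a marker limit of 1 UMI (7.23% of all genes), 1 of 40 after thinning to 3000 UMIs (6.63%), 1 at 2-fold (2.83%), 5 of 46 with mixed barcodes left out (6.35%) and 7 of 47 with the lowest class subtracted. That last setting gave 13 higher, and 14.2% of all genes were higher and 12.3% lower under it. At 2-fold over the next class, all 8 genes were led by one class in place of 5. The share of 10.5% of all genes is for the 4-fold limit and is no background for this count. The share of all genes at 2-fold is not given here, so the count cannot be read as a trait of these genes. Leaving out mixed barcodes brought C1qb and C1qc in insulin barcodes to 0.22 and 0.21, C4b in somatostatin barcodes to 0.39, and C3 dropped out of the genes led by one class. C8b in glucagon barcodes stayed between -0.10 and -0.02 in 13 alternatives, and C1qa in endothelial barcodes between 1.03 and 3.41. With 1 library per genotype, neither mice nor captures were replicated, and leaving out a replicate was not possible. Cfb, and C3 and C4b in somatostatin barcodes, rested on few UMIs.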
